A study of Mus musculus with 23 samples.

Results

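Recombinant alpha1-antitrypsin after inhaled LPS was compared with LPS alone in lungs of male Balb/c mice, by poly(A) RNA-seq with 1 library per mouse. All 5 libraries of the LPS+recAAT group were set against all 5 libraries of the LPS group, which makes 10 of the 23 libraries of the series. The other libraries were 5 from LPS+nAAT, 5 from LPS+oxAAT and 3 from air, and they entered the model for its estimate of the spread. Mice of the LPS+recAAT group inhaled an LPS aerosol (lipopolysaccharide at 0.21 mg/ml) in 3 daily sessions of 10 min, and 1 h after every session recombinant AAT was injected intraperitoneally at 4 mg/kg. Mice of the LPS group had the same sessions and were injected with saline, and both groups ended 6 h after the final injection. LPS+nAAT and LPS+oxAAT mice received native or oxidized AAT at the same dose and times, and air mice breathed clean air. No gene was altered in any group, all mice were male, and their ages were not among the labels. The labels speak of 5 mice per group and do not give the source of the recombinant protein. The C-36 peptide group that the labels mention was not analysed here.

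Alpha1-antitrypsin is a serine protease inhibitor of plasma that blocks neutrophil elastase and passes from the blood into the lung. LPS, a component of the wall of Gram-negative bacteria, acts through TLR4 and NF-kB and draws neutrophils into the airspaces. Immediate early genes are transcribed within minutes of a stimulus without new protein synthesis, and many of their products, such as DUSP1 and ZFP36, limit the signal that induced them. The lung also keeps a circadian clock, in which BMAL1 with CLOCK or NPAS2 activates E-box genes such as Per1, Cry1, Nr1d1 and Dbp, and their products feed back on it.

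The library set went with the group. The count of mt-Nd6, the only protein-coding gene on the light strand of mitochondrial DNA, was 3.39% to 4.5% of the count of mt-Nd5 in the 5 LPS+recAAT libraries, against 0.424% to 1.14% in the 5 LPS libraries. The ratio was above 2% also in 3 of 5 LPS+oxAAT libraries (5103, 5104 and 5105), and below 2% in the other two, in LPS+nAAT and in air. Library set and treatment could therefore be separated only through LPS+oxAAT, and a model with the set as a term rested on the 2 and 3 libraries of that group. Depth was 14.8 to 47.9 M gene counts in LPS+recAAT and 19.7 to 33.8 M in LPS. The lung was recognisable by its alveolar type 2 markers, whose summed level was 31600 to 38900 CPM (counts scaled to library size) in LPS+recAAT and 33100 to 40000 CPM in LPS. In such bulk samples, fewer cells of a type and less RNA per cell cannot be told apart.

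Of 17148 genes tested, 1456 (8.49%) passed an adjusted p of 0.05 between LPS+recAAT and LPS in the quasi-likelihood test of edgeR with Benjamini-Hochberg adjustment. Of these, 1110 (6.47%) were higher and 346 (2.02%) were lower in LPS+recAAT. Most changes were small: 133 genes were at least 2-fold higher and 14 were at least 2-fold lower. The CPM ranges of the 2 groups did not overlap for 1280 genes (7.46%), of which 940 (5.48%) were higher and 340 (1.98%) lower in LPS+recAAT. With the library set as a term, 0 genes passed and 1261 had an unadjusted p under 0.05, while the median standard error (SE) of a log2 fold change was 0.225 against 0.134 without the term. The smallest adjusted p in that model was 0.201. Part of the higher calls went with base composition. Genes called higher had a median transcript GC content of 43.9% and genes called lower 54.4%, against 50.7% over all tested genes. In the fifth of genes of lowest GC, 700 genes were called higher and 9 lower, and in the fifth of highest GC 31 were called higher and 105 lower. The slope of expression on GC, in log2 units per 10 percentage points, was -0.11 to -0.058 in the LPS+recAAT libraries and -0.026 to 0.38 in the LPS libraries. It was -0.058 to 0.029 in air, -0.15 to 0.11 in LPS+nAAT and -0.24 to 0.14 in LPS+oxAAT. The highest slopes were those of LPS 1102 (0.375), 1104 (0.222) and 1101 (0.216). After the curve of expression on GC was removed from each library, 568 genes were called higher and 298 lower, and 632 of these 866 were among the 1456. The part of the library set and of GC content in single genes was not tested beyond 2 fits, with the set as a term and with the curve removed. No call between LPS+recAAT and LPS passed with the set term, and a call of a gene named below that was lost with the GC curve removed is named as such.

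**Figure D1:**
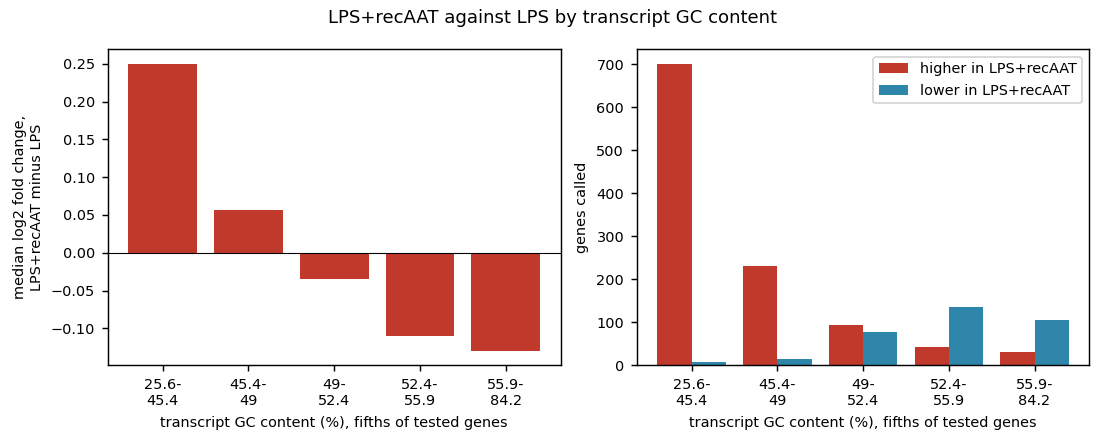
Tested genes in 5 equal groups by transcript GC content (%, x axis of both panels): left, the median log2 fold change of LPS+recAAT minus LPS, right, the number of genes called higher (red) and lower (blue). The median was 0.25 in the group of lowest GC and -0.13 in that of highest GC.

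Among called genes with a mean log2 CPM of at least 1, no overlap between the groups and a symbol that is not a predicted gene, those with the largest decreases were Tmem252, Areg, Csrnp1, Spon2, Syt6, Nr1d1, Klf2 and Zfp36. They are described below, and the promoters of 4 genes called lower in the immediate early and the feedback lists are shown first, because each holds the full palindrome of the cAMP response element (CRE), TGACGTCA, in capitals; in Dusp1 the capitals CACGTG mark an E-box. They are the 200 bases before the start of the gene in RefSeq (GRCm38.p6), read 5′ to 3′ on the gene's strand: Areg, chr5:91139399-91139598, plus strand; Errfi1, chr4:150854870-150855069, plus strand, the second of its RefSeq starts in the table; Dusp1, chr17:26508473-26508672, minus strand; Btg2, chr1:134079156-134079355, minus strand.
Areg: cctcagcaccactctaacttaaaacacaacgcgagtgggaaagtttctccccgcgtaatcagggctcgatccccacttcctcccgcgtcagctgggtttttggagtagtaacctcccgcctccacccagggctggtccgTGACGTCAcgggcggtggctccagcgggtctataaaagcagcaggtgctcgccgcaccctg
Errfi1: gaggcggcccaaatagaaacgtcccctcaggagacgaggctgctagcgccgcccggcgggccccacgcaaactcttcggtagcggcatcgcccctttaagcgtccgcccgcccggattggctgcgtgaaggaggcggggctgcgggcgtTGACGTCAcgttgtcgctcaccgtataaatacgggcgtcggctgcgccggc
Dusp1: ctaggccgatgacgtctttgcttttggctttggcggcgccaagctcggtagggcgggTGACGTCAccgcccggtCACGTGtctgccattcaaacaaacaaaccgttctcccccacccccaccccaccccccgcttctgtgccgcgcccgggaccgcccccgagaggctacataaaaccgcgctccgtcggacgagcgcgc
Btg2: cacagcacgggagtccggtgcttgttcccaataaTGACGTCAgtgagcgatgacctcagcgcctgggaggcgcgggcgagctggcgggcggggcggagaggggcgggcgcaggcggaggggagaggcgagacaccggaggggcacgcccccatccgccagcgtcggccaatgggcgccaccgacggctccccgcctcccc
The CRE stood 61 to 54 bases before the start in Areg, 51 to 44 in Errfi1, 143 to 136 in Dusp1 and 166 to 159 in Btg2. Both strands were searched in the 250 bases before each start, and the palindrome was found in 508 of 32851 windows (1.55%). Of the 11 genes called in the immediate early and the feedback lists, 9 had a RefSeq window, and these 4 held the motif in at least 1 of their windows. This count is by gene and the share by window, so they are not like measures. A match describes the letters and does not show that a factor binds there.

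Of 23 immediate early transcription factors tested, 6 fell, where 2.02% of all genes did, and 0 rose in LPS+recAAT, and the list's median log2 fold change was -0.11, against -0.014 over all tested genes. The 6 were Csrnp1, Klf2, Btg2, Myc, Nr4a1 and Fos. Csrnp1, a nuclear protein induced by growth signals, had 14.4, 20.4, 23.2, 22.9 and 14.9 CPM in the 5 LPS+recAAT libraries, against 32.1, 57.1, 54.3, 60.9 and 31.7 CPM in the 5 LPS libraries. Every LPS+recAAT library lay below every LPS library, at 0.403 times the LPS level (log2 fold change -1.31 ± 0.21, adjusted p = 0.000832). Its level in air was 56 ± 17.3 CPM (SD, n = 3), and LPS did not differ from air beyond the spread (adjusted p = 0.633). With the library set as a term the log2 fold change was -1.67 ± 0.37 (unadjusted p = 0.000199).

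Klf2, a transcription factor of quiescent endothelium and T cells, had 44.8, 51.3, 65.8, 65.6 and 54.1 CPM in LPS+recAAT and 110, 117, 110, 98.4 and 92 CPM in LPS (log2 fold change -0.91 ± 0.16, adjusted p = 0.00111). The groups did not overlap, and the value with the set term was -1.06 ± 0.28. Btg2, an antiproliferative regulator of mRNA deadenylation, was the tightest of these genes, with 139, 135, 147, 148 and 150 CPM in LPS+recAAT and 184, 214, 195, 192 and 182 CPM in LPS (log2 fold change -0.43 ± 0.071, adjusted p = 0.00084), and was at -0.56 ± 0.12 with the set term. Myc, a driver of growth and proliferation, averaged 12.1 ± 0.824 CPM in LPS+recAAT and 17.5 ± 2.47 CPM in LPS (SD, n = 5 each), with no overlap (log2 fold change -0.53 ± 0.12, adjusted p = 0.00812), and was at -0.3 ± 0.21 with the set term. Myc was itself higher in LPS than in air (log2 fold change 1.17), where it averaged 7.79 ± 0.101 CPM (SD, n = 3). Fos, a subunit of AP-1, overlapped between the groups, with 38.9, 27.6, 33.7, 40.7 and 35.7 CPM in LPS+recAAT and 32.1, 55.8, 43.3, 58.5 and 51.6 CPM in LPS. Its call was close to the threshold (adjusted p = 0.0455) and was lost in 12 of 25 alternative settings. These included the edgeR fits without LPS 1102, 1104 (adjusted p = 0.15) or 1105 and without LPS+recAAT 6102, 6103 or 6105. With the GC curve removed the call of Fos was lost too (adjusted p = 0.164), and its log2 fold change was -0.3 ± 0.25 with the set term. Nr4a1, an orphan nuclear receptor, averaged 21.2 ± 3.73 CPM in LPS+recAAT and 37.4 ± 8.21 CPM in LPS (log2 fold change -0.82 ± 0.22, adjusted p = 0.0224), was at -0.4 ± 0.38 with the set term, and lost its call with the GC curve removed (adjusted p = 0.0501).

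Among 20 genes of MAP kinase and EGF receptor signalling and its feedback, 4 fell and 1 rose, with a median of -0.025. The shares over all tested genes were 2.02% and 6.47%. Areg, the EGF receptor ligand amphiregulin, had 1.79, 1.05, 1.82, 1.21 and 0.875 CPM in LPS+recAAT and 2.09, 3.35, 4.47, 3.94 and 3.59 CPM in LPS (log2 fold change -1.38 ± 0.3, adjusted p = 0.00509). All LPS+recAAT libraries lay below all LPS libraries, at low levels where counting error adds to the spread. Errfi1, a feedback inhibitor of EGF receptor kinases, had 83.4, 133, 126, 109 and 81.5 CPM in LPS+recAAT and 170, 232, 194, 217 and 164 CPM in LPS (log2 fold change -0.88 ± 0.15, adjusted p = 0.00118), again without overlap. Spry4, an inhibitor of RAS and ERK signalling, averaged 23.5 ± 3.33 CPM in LPS+recAAT and 35.6 ± 5.8 CPM in LPS (log2 fold change -0.6 ± 0.13, adjusted p = 0.00428). Dusp1, a phosphatase that switches off p38 and JNK, had 125, 110, 117, 151 and 111 CPM in LPS+recAAT and 125, 205, 193, 238 and 202 CPM in LPS (log2 fold change -0.65 ± 0.15, adjusted p = 0.0067). LPS 1101 lay within the range of the LPS+recAAT libraries and the other 4 LPS libraries above it. In the model with the library set, the log2 fold changes were -1.79 ± 0.52 for Areg, -1.1 ± 0.27 for Errfi1, -1.02 ± 0.2 for Spry4 and -0.42 ± 0.25 for Dusp1. The member that rose was Spred1, another inhibitor of this pathway, which averaged 110 ± 12.5 CPM in LPS+recAAT and 75.5 ± 17.2 CPM in LPS (log2 fold change 0.54 ± 0.15, adjusted p = 0.0227). Spred1 was at -0.074 ± 0.21 with the set term and lost its call with the GC curve removed (adjusted p = 0.153).

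Tmem252, which encodes a small membrane protein (chr19:24674008-24682233, plus strand, GENCODE on GRCm38), had the largest decrease among the genes chosen this way. It had 18.5, 14.9, 27.5, 26.4 and 20.7 CPM in LPS+recAAT and 50.6, 59.3, 72.5, 62.5 and 41.9 CPM in LPS, and the highest LPS+recAAT library lay below the lowest LPS library (log2 fold change -1.42 ± 0.2, adjusted p = 0.000338). The value with the set term was -1.9 ± 0.34, the smallest unadjusted p of that model (1.2e-05), and its adjusted p was 0.201. Spon2, a secreted matrix protein, averaged 3.27 ± 1.24 CPM in LPS+recAAT and 7.41 ± 1.47 CPM in LPS (log2 fold change -1.16 ± 0.3, adjusted p = 0.0146). Syt6, a synaptotagmin of membrane fusion, averaged 1.35 ± 0.486 CPM in LPS+recAAT and 2.83 ± 0.505 CPM in LPS (log2 fold change -1.01 ± 0.23, adjusted p = 0.00652). These 2 genes kept negative values with the set term (-0.67 ± 0.51 for Spon2 and -0.75 ± 0.4 for Syt6), with unadjusted p of 0.199 and 0.072. Klf10 had the smallest p of all genes and Lipo3 one of the next smallest, and both were picked after their values were seen. Klf10, a TGF-beta induced repressor, had 67.8, 84.2, 63.1, 66.6 and 59.8 CPM in LPS+recAAT and 30.3, 20.9, 29.1, 25.9 and 38.5 CPM in LPS (log2 fold change 1.24 ± 0.12, adjusted p = 7.14e-06), and was at 1.11 ± 0.21 with the set term. Klf10 was also higher than in LPS in LPS+nAAT (0.94, adjusted p = 0.000606 in edgeR) and in LPS+oxAAT (0.86, adjusted p = 0.000767 in edgeR). Lipo3, of a lipase family, averaged 33.3 ± 2.53 CPM in LPS+recAAT and 15.4 ± 3.55 CPM in LPS (log2 fold change 1.11 ± 0.15, adjusted p = 0.00028), and was at 0.41 ± 0.19 with the set term.

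**Figure D2:**
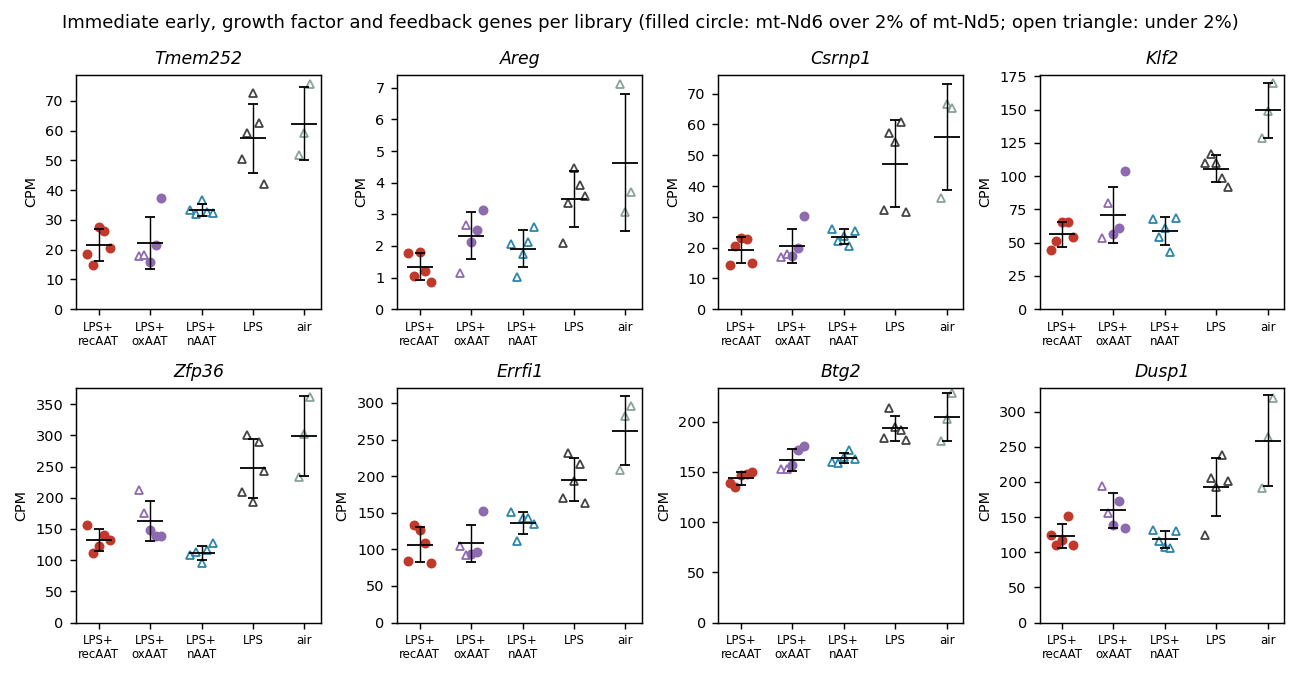
CPM (y axis, from 0) of 8 genes in each library of the 5 groups (x axis), with mean and SD as black bars; filled circles are libraries with mt-Nd6 above 2% of mt-Nd5 and open triangles those below. LPS+recAAT lay below LPS without overlap in all of them except Dusp1, and air was higher than LPS on average.

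Of 15 proteins that destabilise mRNA or recruit deadenylases, 1 fell and 4 rose, where 2.02% and 6.47% of all genes did. The list's median was 0.18. Zfp36, tristetraprolin, which targets cytokine mRNAs with AU-rich elements, had 156, 111, 122, 140 and 132 CPM in LPS+recAAT and 209, 300, 193, 290 and 243 CPM in LPS, without overlap (log2 fold change -0.9 ± 0.14, adjusted p = 0.000665). Its paralog Zfp36l1 went the other way, with 335, 320, 259, 291 and 286 CPM in LPS+recAAT and 199, 152, 188, 160 and 255 CPM in LPS (log2 fold change 0.64 ± 0.11, adjusted p = 0.000832). Exons of another gene on the opposite strand cover 55.9% of the exons of Zfp36l1, and the strand setting of the counting is not given in the sources used here. With the set term the log2 fold change was -0.44 ± 0.22 for Zfp36 and 0.5 ± 0.18 for Zfp36l1. Tob1, a recruiter of the CCR4-NOT deadenylase, averaged 51.3 ± 2.92 CPM in LPS+recAAT and 35.3 ± 3.51 CPM in LPS (log2 fold change 0.54 ± 0.11, adjusted p = 0.00325), and turned to -0.026 ± 0.14 with the set term. Rc3h2 (log2 fold change 0.56 ± 0.15, adjusted p = 0.0166), a roquin, and Cnot6 (log2 fold change 0.49 ± 0.15, adjusted p = 0.0396), a deadenylase, lost their calls with the GC curve removed, at adjusted p of 0.815 and 0.406, and were at 0.082 ± 0.23 and -0.057 ± 0.22 with the set term.

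The circadian clock held the highest share of calls among the lists that moved in both directions. Of its 20 genes, 6 rose (among them Cry1, Npas2, Nr1d2, Rora and Bhlhe41) and 3 fell (Nr1d1, Per1 and Ciart). Over all tested genes 6.47% rose and 2.02% fell. The list's median was 0.23, and with the GC curve removed 5 were called higher and 1 lower. The sample times used here are relative to sessions and injections, so a part of the time of day in these values was not tested. Promoters of 2 of the genes that fell are shown because they hold the canonical E-box CACGTG, in capitals: Per1, chr11:69098749-69098948, plus strand, and Ciart, chr3:95882229-95882428, minus strand, again the bases before a RefSeq start on GRCm38.p6.
Per1: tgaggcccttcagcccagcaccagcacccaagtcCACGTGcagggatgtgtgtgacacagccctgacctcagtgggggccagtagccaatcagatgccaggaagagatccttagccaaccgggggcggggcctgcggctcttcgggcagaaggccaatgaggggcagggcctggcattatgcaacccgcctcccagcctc
Ciart: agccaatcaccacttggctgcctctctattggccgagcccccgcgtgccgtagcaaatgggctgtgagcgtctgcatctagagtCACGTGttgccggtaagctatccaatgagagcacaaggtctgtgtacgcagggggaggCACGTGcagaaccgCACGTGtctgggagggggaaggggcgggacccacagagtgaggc
Per1 held 1 and Ciart 3 copies of this E-box. Another window of Per1 held none, nor did the window of Nr1d1, which also fell. The E-box was present in at least 1 window of 4 of the 8 called clock genes with a RefSeq entry (also of Cry1 and Bhlhe41, which rose), and in 1978 of all 32851 windows (6.02%), with both strands searched. The count is by gene and the share by window, so they are not like measures.

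Nr1d1, the heme-binding repressor REV-ERB alpha of Bmal1 and other clock genes (chr11:98767932-98775333, minus strand), had 78.3, 78.1, 111, 79.7 and 87.2 CPM in LPS+recAAT and 150, 153, 138, 235 and 179 CPM in LPS (log2 fold change -0.98 ± 0.16, adjusted p = 0.000848). All 5 LPS+recAAT libraries lay below all LPS libraries, and LPS itself lay below air, which averaged 285 ± 36.1 CPM (SD, n = 3; LPS against air, log2 fold change -0.74, adjusted p = 0.0177). With the set term the value for LPS+recAAT against LPS was -0.52 ± 0.26 (unadjusted p = 0.0589). Exons of Thra on the opposite strand overlap 8.55% of its exons. Per1, a repressor of BMAL1 that glucocorticoids also induce, had 90.5, 155, 170, 158 and 92.1 CPM in LPS+recAAT and 207, 261, 249, 281 and 202 CPM in LPS (log2 fold change -0.85 ± 0.19, adjusted p = 0.00567). Here too the groups did not overlap. The value was -1.4 ± 0.31 with the set term, and the call was lost with the GC curve removed (adjusted p = 0.0518). Ciart, a repressor of CLOCK and BMAL1, averaged 9.49 ± 1.76 CPM in LPS+recAAT and 14.9 ± 4.06 CPM in LPS (log2 fold change -0.63 ± 0.19, adjusted p = 0.0368), was at -0.11 ± 0.3 with the set term, and lost its call with the GC curve removed (adjusted p = 0.0765). Dbp, an output of the clock, averaged 76.5 ± 14.6 CPM in LPS+recAAT and 106 ± 10.6 CPM in LPS without overlap and did not pass (log2 fold change -0.47 ± 0.17, adjusted p = 0.0791; 0.11 ± 0.25 with the set term).

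Among the clock genes that rose, Cry1, a repressor of CLOCK and BMAL1, had 31.6, 36.2, 31.2, 33.5 and 32.2 CPM in LPS+recAAT and 19.8, 16.6, 23.2, 17.3 and 20.3 CPM in LPS (log2 fold change 0.76 ± 0.16, adjusted p = 0.00367). The groups did not overlap, but the value was 0.09 ± 0.23 with the set term. Npas2, a partner of BMAL1, had 8.32, 5.13, 7.42, 4.79 and 5.83 CPM in LPS+recAAT and 3.52, 4, 3.01, 2.62 and 4.55 CPM in LPS (log2 fold change 0.84 ± 0.21, adjusted p = 0.0125), and was at 0.84 ± 0.37 with the set term. Bhlhe41, a repressor that competes for E-boxes, averaged 31.3 ± 1.23 CPM in LPS+recAAT and 23.3 ± 4.02 CPM in LPS (log2 fold change 0.43 ± 0.11, adjusted p = 0.0201), and was at 0.59 ± 0.2 with the set term. Rora and Nr1d2, nuclear receptors that act on the same elements as Nr1d1, had log2 fold changes of 0.71 ± 0.19 and 0.44 ± 0.14, with adjusted p of 0.0227 and 0.0488 in edgeR. With the set term they were at -0.025 ± 0.29 and -0.025 ± 0.22, and Nr1d2 lost its call with the GC curve removed (adjusted p = 0.092). Per2 (0.33), Per3 (0.071), Arntl, which encodes BMAL1 (0.23), and Clock (0.34) did not pass, given here as log2 fold changes.

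**Figure D3:**
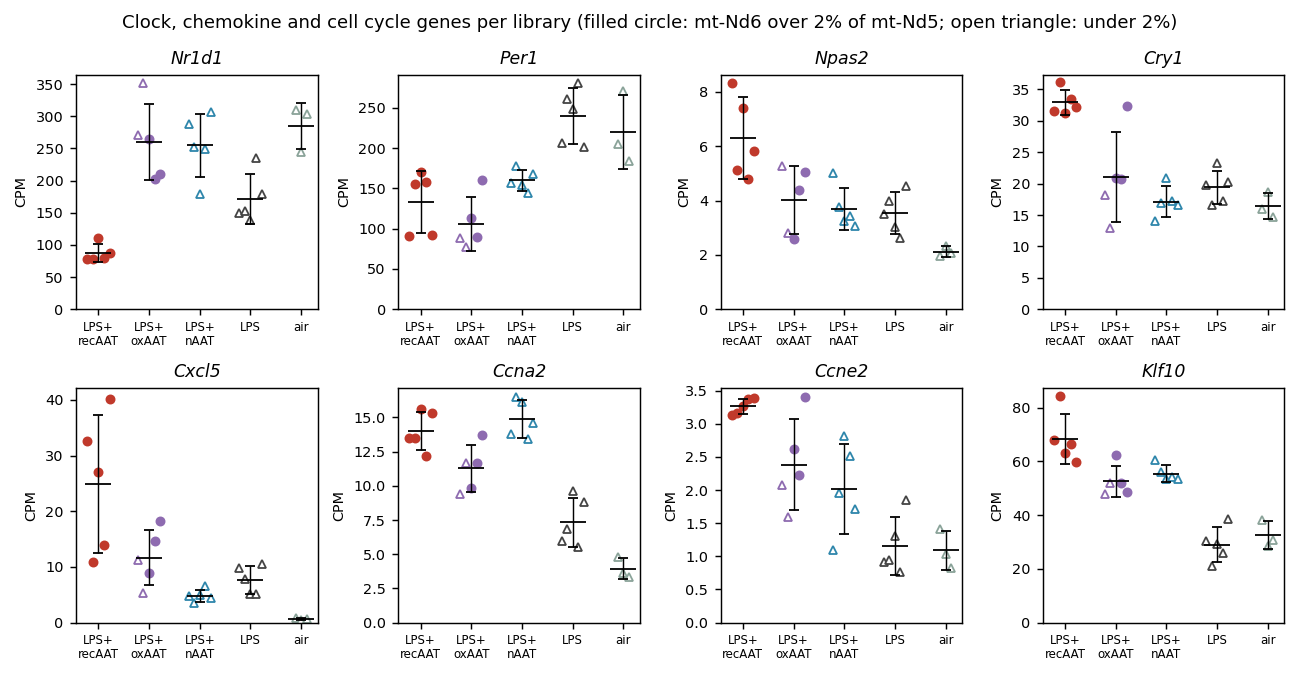
CPM (y axis, from 0) of clock genes, Cxcl5, cell cycle genes and Klf10 in each library of the 5 groups (x axis), with mean and SD as black bars; filled circles are libraries with mt-Nd6 above 2% of mt-Nd5 and open triangles those below. Nr1d1 was lower in LPS+recAAT than in every other group, at 78.1 to 111 CPM, and Cxcl5 had its highest mean there, with libraries at 10.8 to 40.2 CPM.

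Genes that respond to glucocorticoids did not move one way: 3 of 18 rose and 4 fell, with a median of -0.10. Among all tested genes 6.47% rose and 2.02% fell. Fkbp5, a co-chaperone of the glucocorticoid receptor, had 34.7, 90.9, 56.6, 48.2 and 28.8 CPM in LPS+recAAT and 18.6, 18.4, 25.9, 25.1 and 30.6 CPM in LPS (log2 fold change 1.12 ± 0.27, adjusted p = 0.0104), with the lowest LPS+recAAT library inside the LPS range. Zbtb16, a zinc finger factor strongly induced by steroids, had 93.9, 218, 43, 116 and 30.2 CPM in LPS+recAAT and 30, 5.46, 10.5, 13.8 and 54.7 CPM in LPS, a spread of several fold within each group (log2 fold change 2.13 ± 0.59, adjusted p = 0.0315). The call of Zbtb16 was lost in 12 of 25 alternative settings. These included the edgeR fits without LPS 1101, 1102, 1103 or 1104 and without LPS+recAAT 6101, 6102 (adjusted p = 0.0972) or 6104. Hif3a, also on the hypoxia list, had 8.56, 16.4, 8.49, 9.11 and 3.05 CPM in LPS+recAAT and 3.13, 3.6, 2.45, 4.43 and 4.76 CPM in LPS (log2 fold change 1.31 ± 0.32, adjusted p = 0.0119). Those that fell were Per1, Dusp1 and Errfi1, given above, and Cebpd, an inducible C/EBP factor (log2 fold change -0.73 ± 0.22, adjusted p = 0.0376), which was at -0.72 ± 0.4 with the set term and had an adjusted p of 0.0535, its call lost, with the GC curve removed. Tsc22d3, the glucocorticoid-induced leucine zipper, did not pass, at 158, 312, 328, 276 and 176 CPM in LPS+recAAT and 267, 326, 369, 352 and 268 CPM in LPS (adjusted p = 0.337 in edgeR). In the model with the library set, Fkbp5 was at 0.33 ± 0.42, Zbtb16 at 0.78 ± 0.95 and Hif3a at 1 ± 0.56 on the log2 scale.

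Of 21 inflammatory cytokines and chemokines tested, 1 rose (Cxcl5) and 0 fell, close to the 6.47% and 2.02% of all genes that did. The list's median was 0.22, and 19 members had a positive and 2 a negative log2 fold change, where 8202 of 17148 genes had a positive one. Cxcl3 (0.96 ± 0.34, adjusted p = 0.0812 in edgeR) and Cxcl10 (0.54 ± 0.17, adjusted p = 0.0512 in edgeR) did not pass. Cxcl5, a neutrophil attractant made by lung epithelium (chr5:90759360-90761624, plus strand), had 32.7, 10.8, 27.1, 13.9 and 40.2 CPM in LPS+recAAT and 9.74, 7.76, 5.19, 5.2 and 10.6 CPM in LPS. The lowest LPS+recAAT library was just above the highest LPS library, and the mean was 3.26-fold higher (log2 fold change 1.71 ± 0.33, adjusted p = 0.00289). Cxcl5 averaged 0.677 ± 0.21 CPM in air (SD, n = 3), so LPS alone was already higher than air (log2 fold change 3.51, adjusted p = 0.000132). Under the set term its value was 0.95 ± 0.56 (unadjusted p = 0.103), and LPS+oxAAT libraries of the second set averaged 13.9 CPM against 8.33 CPM in those of the first. Il1b had 54.1, 50.3, 54.8, 50.7 and 103 CPM in LPS+recAAT and 45.8, 44.8, 41.9, 50.9 and 72 CPM in LPS (adjusted p = 0.365 in edgeR). Tnf had 7.52, 5.33, 4.95, 5.33 and 6.38 CPM in LPS+recAAT and 4.14, 5.46, 2.92, 4.81 and 8.35 CPM in LPS (adjusted p = 0.561 in edgeR). The ranges overlapped for each of these cytokines. The neutrophil attractants Cxcl1 and Cxcl2 had log2 fold changes of 0.39 ± 0.21 and 0.2 ± 0.24, and Il6, at 0.202 ± 0.106 CPM in LPS+recAAT and 0.23 ± 0.102 CPM in LPS, had one of -0.22 ± 0.44, and none of the 3 passed.

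The acute phase and antimicrobial genes that were high after LPS showed little difference between LPS+recAAT and LPS. Saa3, an acute phase apolipoprotein, had 198, 185, 303, 276 and 362 CPM in LPS+recAAT and 339, 414, 234, 196 and 248 CPM in LPS, against 4.81 ± 1.17 CPM in air (SD, n = 3). Lcn2, an iron-scavenging lipocalin, had 1060, 1220, 1540, 1270 and 1560 CPM in LPS+recAAT and 1350, 1400, 987, 1000 and 1220 CPM in LPS, against 140 ± 31.4 CPM in air. The ranges of the 2 LPS-exposed groups overlapped for both genes, and the log2 fold changes between them were -0.11 ± 0.2 for Saa3 and 0.16 ± 0.13 for Lcn2. Of the 24 genes of this list, 1 rose (Steap4, a metalloreductase, 0.58 on the log2 scale and 0.08 ± 0.24 with the set term, named after its value was seen) and 0 fell, and 0 of 20 NF-kB targets and feedback genes were called. Over all tested genes 6.47% rose and 2.02% fell, so few or no calls in lists this small, here and below, do not set them apart. None of the 12 interferon gamma induced GTPases and none of the 17 antigen presentation genes was called either, although 16 of the 17 had a negative log2 fold change (median -0.24, and -0.13 with the GC curve removed). Of 26 type I interferon stimulated genes, 2 rose, close to the 6.47% of all genes that did: Ifit2 (log2 fold change 0.53 ± 0.14, adjusted p = 0.0205) and Rsad2 (log2 fold change 0.65 ± 0.18, adjusted p = 0.0232), both antiviral effectors, and they were at -0.089 ± 0.2 and 0.22 ± 0.3 with the set term. Rsad2 lost its call with the GC curve removed (adjusted p = 0.083).

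Several genes of the cell cycle were higher in LPS+recAAT. Of 30 tested, 8 rose, where 6.47% of all genes did, and 0 fell, 29 had a positive log2 fold change, and the median was 0.31, or 0.25 with the GC curve removed. Ccna2, cyclin A of S and G2 phase, had 13.5, 13.5, 15.6, 12.2 and 15.3 CPM in LPS+recAAT and 5.93, 6.81, 9.6, 5.51 and 8.85 CPM in LPS (log2 fold change 0.93 ± 0.15, adjusted p = 0.000665). Ccnb1, the mitotic cyclin B, had 7.52, 7.16, 9.28, 8.84 and 8.67 CPM in LPS+recAAT and 4.33, 2.6, 4.41, 4.33 and 5.9 CPM in LPS (log2 fold change 0.93 ± 0.17, adjusted p = 0.00159). Ccne2, cyclin E of entry into S phase, had 3.13, 3.17, 3.27, 3.37 and 3.39 CPM in LPS+recAAT and 0.912, 0.951, 1.31, 0.767 and 1.85 CPM in LPS (log2 fold change 1.49 ± 0.26, adjusted p = 0.00106). In all 3 the groups did not overlap, and for Ccna2 and Ccnb1 the LPS+recAAT level was farther from air, at 3.94 ± 0.792 and 1.82 ± 0.334 CPM (SD, n = 3), than the LPS level was. Under the set term they stood at 0.78 ± 0.25, 0.62 ± 0.29 and 0.89 ± 0.42 on the log2 scale. Hells, a chromatin remodeller of replicating cells, had a log2 fold change of 0.58 ± 0.12, and 0.67 ± 0.21 with the set term. The others that rose were Top2a (0.45, and 0.11 ± 0.23 with the set term), Ube2c (0.61, 0.54 ± 0.29), Rrm2 (0.5, 0.28 ± 0.19) and Pclaf (0.75, 0.25 ± 0.31). Top2a and Pclaf lost their calls with the GC curve removed, at adjusted p of 0.305 and 0.203. Mki67, a general marker of cycling cells, averaged 39.8 ± 6.78 CPM in LPS+recAAT and 33.9 ± 5.36 CPM in LPS and did not pass (log2 fold change 0.23), nor did Pcna and the MCM helicase genes, at -0.064 to 0.12. Exons on the opposite strand overlap 17.4% of the exons of Ccne2 and 12.5% of those of Ccna2. Ccna2 and Ccnb1 were also higher in LPS+nAAT than in LPS, at 1.02 and 0.95 on the log2 scale (adjusted p = 0.00138 and 0.0101 in edgeR). Ccne2 (0.78) and Hells (0.46) did not pass in that comparison.

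The stress and metabolic lists are set beside the 6.47% of all genes that rose and the 2.02% that fell. Of 18 targets of Nrf2, the regulator of the antioxidant response, 4 rose and 0 fell, with a median of 0.068. Osgin1, an oxidative stress response gene, had 43.4, 48.3, 36.4, 39.9 and 42.2 CPM in LPS+recAAT and 36.3, 31.6, 25.6, 28.7 and 28.4 CPM in LPS (log2 fold change 0.48 ± 0.11, adjusted p = 0.00718), without overlap, and was at 0.74 ± 0.18 with the set term. Gclm and Gsr, of glutathione synthesis and reduction, and Gsta3, a glutathione transferase, had log2 fold changes of 0.38 ± 0.1, 0.28 ± 0.073 and 0.47 ± 0.12, and of -0.063 ± 0.13, 0.057 ± 0.12 and 0.24 ± 0.2 with the set term. Gsta3 lost its call with the GC curve removed (adjusted p = 0.103). Of 18 genes of the unfolded protein response, 1 rose and 2 fell. Dnajb9, an endoplasmic reticulum co-chaperone, had 61.7, 71.4, 73, 65.4 and 70.9 CPM in LPS+recAAT and 32.8, 27.2, 36.4, 28.3 and 42 CPM in LPS (log2 fold change 1.04 ± 0.16, adjusted p = 0.000668), but 0.15 ± 0.19 with the set term, and it averaged 77 CPM in the second and 41.7 CPM in the first set of LPS+oxAAT. Sesn2 (-0.51 ± 0.12), a stress-induced inhibitor of mTORC1, and Atf4 (-0.34 ± 0.11), the main factor of the integrated stress response, were lower, and were at -0.53 ± 0.21 and -0.094 ± 0.18 with the set term. Both calls were lost with the GC curve removed, at adjusted p of 0.0603 and 0.136. Of 19 genes of cholesterol and fatty acid synthesis, 2 rose, and 14 had a negative value. Insig1, the sterol sensor partner of SCAP, had 95.8, 87.1, 68.9, 72.5 and 90.2 CPM in LPS+recAAT and 53.3, 53.6, 52, 50.5 and 60.4 CPM in LPS (log2 fold change 0.62 ± 0.1, adjusted p = 0.000693), where LPS was lower than air (adjusted p = 3.9e-05), and it was at 0.78 ± 0.17 with the set term. The other was Idi1, an isomerase of the pathway (0.62 ± 0.16, and 0.13 ± 0.25 with the set term), whose call was lost with the GC curve removed (adjusted p = 0.15). Of 22 hypoxia and glycolysis genes, 3 rose (Hif1a, Hif3a and Bnip3) and 2 fell (Pfkl and Pfkp). Hif1a, the oxygen-regulated factor, was at 0.49 ± 0.14 and at -0.16 ± 0.19 with the set term, and Bnip3, a mitophagy receptor, was at 0.38 ± 0.1 and at 0.053 ± 0.16. Pfkl, a phosphofructokinase, was at -0.28 ± 0.082 and at -0.27 ± 0.15 with the set term. Hif1a and Pfkl lost their calls with the GC curve removed, at adjusted p of 0.284 and 0.296. Pfkp, another phosphofructokinase, averaged 62.3 ± 2.86 CPM in LPS+recAAT and 74.6 ± 2.69 CPM in LPS (log2 fold change -0.26 ± 0.062, adjusted p = 0.00966), and was at -0.16 ± 0.11 with the set term. No member of the heat shock, nuclear OXPHOS, ribosomal protein, extracellular matrix, histone or neutrophil protease lists was called.

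**Figure D4:**
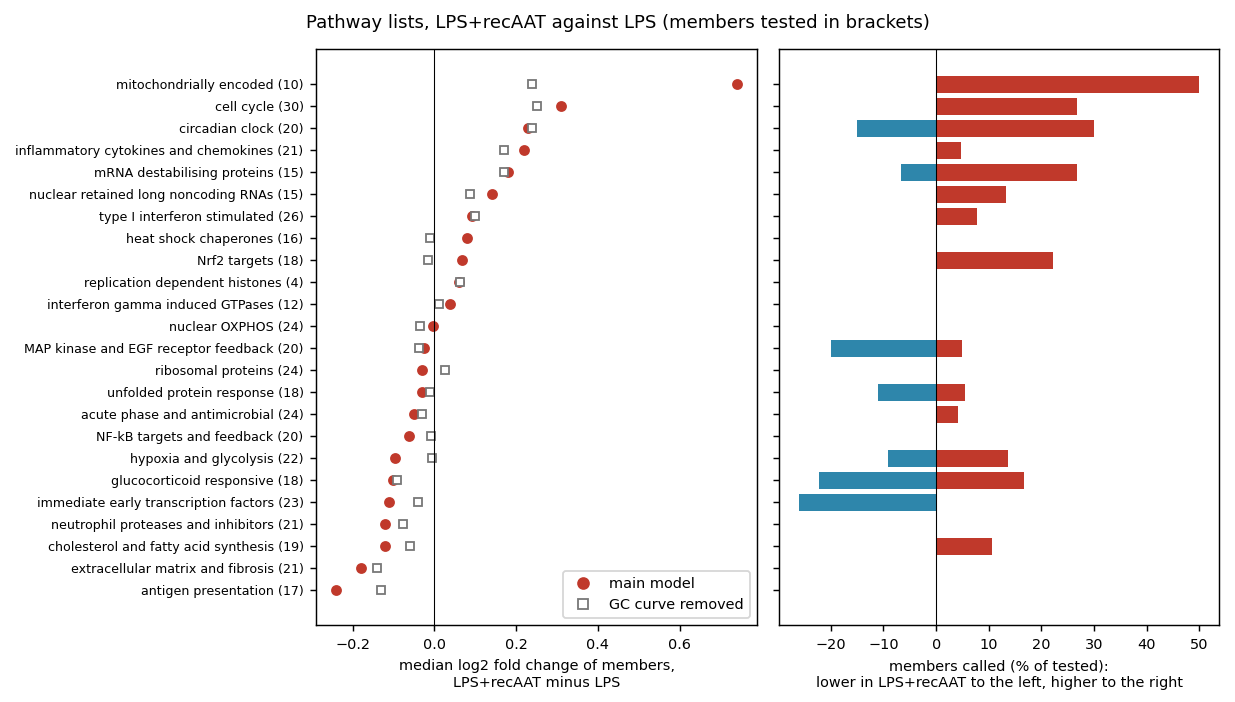
For each of 24 pathway lists (rows, with the number of members tested), the median log2 fold change of its members (left, red circles, and open squares with the GC curve removed) and the percent of members called (right, higher in LPS+recAAT in red, lower in blue). The mitochondrially encoded list had a median of 0.24 with the GC curve removed, against 0.74 without, and the immediate early list held only genes called lower.

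The 2 largest increases among genes chosen by the same criteria, mt-Nd6 and Syn3, moved with the library set. mt-Nd6, which defines the set, averaged 85.4 ± 11.4 CPM in LPS+recAAT and 8.41 ± 4.79 CPM in LPS (log2 fold change 3.35), and its difference is therefore no result about the treatment. Syn3, a synapsin whose exons overlap those of Timp3 on the other strand over 14.1% of their length, averaged 9.26 ± 1.9 CPM in LPS+recAAT and 1.27 ± 0.275 CPM in LPS (log2 fold change 2.86 ± 0.48, adjusted p = 0.00104), turned to -0.25 ± 0.38 with the set term, and averaged 9.33 CPM in the second and 1.1 CPM in the first set of LPS+oxAAT. Of the 10 mitochondrially encoded genes tested, 5 rose, where 6.47% of all genes did, but only mt-Nd6 was called with the GC curve removed. mt-Nd2, a subunit of complex I, had 2830, 1480, 1840, 2080 and 1810 CPM in LPS+recAAT and 885, 672, 923, 856 and 1700 CPM in LPS (log2 fold change 0.99 ± 0.21, adjusted p = 0.00509), with LPS 1105 inside the LPS+recAAT range, and was at 0.8 ± 0.38 with the set term. The other called members were mt-Nd1, mt-Co2 and mt-Atp6, of which the last 2 were under 2 CPM. Snhg14, a long noncoding host transcript of snoRNAs, had 5.8, 2.81, 2.52, 3.24 and 3.84 CPM in LPS+recAAT and 1.01, 0.651, 0.626, 1.05 and 1.28 CPM in LPS (log2 fold change 1.98 ± 0.33, adjusted p = 0.000893), and was at 1.31 ± 0.54 with the set term. It was 1 of 2 called among 15 nuclear retained noncoding RNAs, both higher, where 6.47% of all genes rose. The other was Tug1 (0.31 ± 0.079, and 0.24 ± 0.14 with the set term), whose call was lost with the GC curve removed (adjusted p = 0.6). Rab3c, a GTPase of vesicle release, had 14.6, 18.7, 9.56, 9.24 and 4.95 CPM in LPS+recAAT and 2.51, 2.8, 4.17, 2.79 and 4.59 CPM in LPS (log2 fold change 1.76 ± 0.3, adjusted p = 0.00106), and was at 1.31 ± 0.51 with the set term. Prrg1, a membrane Gla protein, averaged 18.1 ± 0.871 CPM in LPS+recAAT and 5.92 ± 2.23 CPM in LPS (log2 fold change 1.6 ± 0.23, adjusted p = 0.000505), and the noncoding Gt(ROSA)26Sor averaged 18 ± 5.46 and 5.01 ± 1.34 CPM in these groups (log2 fold change 1.85 ± 0.25, adjusted p = 0.000308). In the model with the set they were at 0.48 ± 0.29 for Prrg1 and 0.91 ± 0.37 for Gt(ROSA)26Sor.

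**Figure D5:**
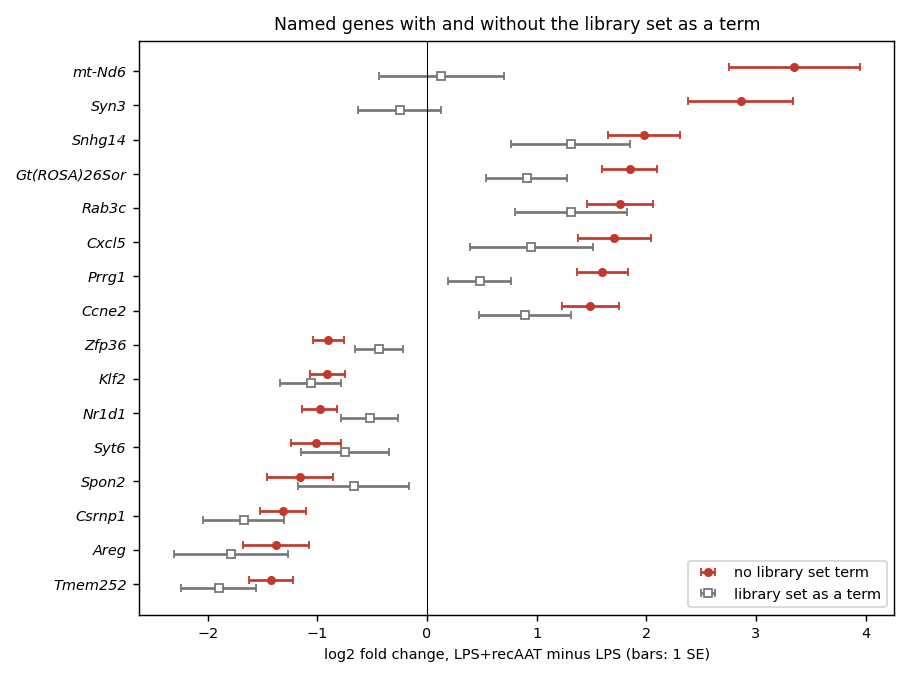
Log2 fold change of LPS+recAAT minus LPS (x axis, bars are 1 SE) for the 8 largest changes per direction by the stated criteria (rows), without (red circles) and with (open squares) the library set as a term. Tmem252, Areg, Csrnp1 and Klf2 lay below -1 with the term, while mt-Nd6 and Syn3 lay near 0.

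Cell type markers showed no broad difference in calls. Of 22 marker lists, with 7 to 20 members tested in each, 13 held no called gene and 9 held 1 or 2. Over all tested genes 8.49% were called, so these counts do not set the markers apart from other genes. Some lists leaned lower without calls, where 8946 of 17148 genes had a negative log2 fold change. Of the B cell markers 10 were negative and 2 positive (median -0.35, and 0.47 with the set term). Among ciliated cell markers 13 were negative and 1 positive (median -0.18, and -0.22 with the set term). Summed B cell markers were at 168 to 271 CPM in LPS+recAAT and 238 to 316 CPM in LPS. Neutrophil markers summed to 404 to 649 CPM in LPS+recAAT and 489 to 619 CPM in LPS, and of the 19 tested, Clec4e, a pattern receptor, rose (0.45 ± 0.12, and 0.26 ± 0.21 with the set term) and Hdc, histidine decarboxylase, fell. Clec4e lost its call with the GC curve removed (adjusted p = 0.255). Hdc had 66.1, 48.3, 64.5, 58.6 and 59.6 CPM in LPS+recAAT and 93.3, 108, 71.1, 107 and 72.3 CPM in LPS (log2 fold change -0.6 ± 0.14, adjusted p = 0.00701), and was at -0.3 ± 0.23 with the set term. The 8 other called markers, named after their values were seen, were Prdm1, Cav1, Hpgd and Gpm6a, which rose, and Nos2, Gata2, Macf1 and Pdgfrb, which fell. Nos2, the inducible nitric oxide synthase, averaged 5.39 ± 0.618 CPM in LPS+recAAT and 8.65 ± 1.15 CPM in LPS (log2 fold change -0.69 ± 0.14, adjusted p = 0.00366), and was at -0.63 ± 0.26 with the set term. With the GC curve removed Hpgd, Gpm6a, Gata2 and Pdgfrb lost their calls, at adjusted p of 0.692, 0.204, 0.179 and 0.0536. Heart muscle markers ranged over 152 to 634 CPM in LPS+recAAT and 147 to 596 CPM in LPS, and erythroid markers over 859 to 3780 CPM and 1730 to 2870 CPM.

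LPS+recAAT was also set directly against the other AAT preparations, given at the same dose and times. Against LPS+nAAT, 331 genes (1.93%) passed, 207 of them (1.21%) higher and 124 (0.723%) lower in LPS+recAAT, but all LPS+nAAT libraries belong to the first set, and with the set as a term 0 passed (2093 at an unadjusted p under 0.05). By the same criteria as above, the largest differences upward were mt-Nd6, Syn3, Cxcl5 and Snhg14, and those downward Nr1d1, Cilp, Tex11 and Acoxl. Cxcl5 had 32.7, 10.8, 27.1, 13.9 and 40.2 CPM in LPS+recAAT and 4.79, 3.46, 4.9, 6.51 and 4.5 CPM in LPS+nAAT (log2 fold change 2.39 ± 0.34, adjusted p = 0.00202 in edgeR). Its ranges did not overlap. Nr1d1 had 78.3, 78.1, 111, 79.7 and 87.2 CPM in LPS+recAAT and 288, 253, 179, 249 and 306 CPM in LPS+nAAT, also without overlap (log2 fold change -1.56 ± 0.16, adjusted p = 2.04e-05 in edgeR). Cxcl1 and Cxcl2 also passed in this comparison, at 1.24 and 1.48 on the log2 scale. Against LPS they were at 0.39 and 0.2 in LPS+recAAT, where neither passed. In LPS+nAAT against LPS they were at -0.85 and -1.28, of which Cxcl2 passed (adjusted p = 0.0186 in edgeR). Cxcl2 averaged 8.99 ± 1.92 CPM in LPS+recAAT and 3.24 ± 0.35 CPM in LPS+nAAT (SD, n = 5 each). Acoxl, an acyl-CoA oxidase like protein, averaged 22.8 ± 4.11 CPM in LPS+recAAT and 44.6 ± 10.3 CPM in LPS+nAAT. Cilp, a matrix protein of cartilage, and Tex11, a meiosis gene, were under 6 CPM on average in both groups, at -1.13 and -1.06. Against LPS, Cilp was at -0.61 in LPS+recAAT and 0.52 in LPS+nAAT, and Tex11 at -0.26 and 0.8, with no call. For the immediate early and feedback genes no difference from LPS+nAAT was called: Tmem252 differed by -0.64 ± 0.2, Csrnp1 by -0.31 ± 0.21, Klf2 by -0.07 ± 0.16 and Zfp36 by 0.24 ± 0.14 (log2 fold change ± SE).

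Against LPS+oxAAT, which holds libraries of both sets, 3 genes (0.0175%) passed, all lower in LPS+recAAT, and 497 had an unadjusted p under 0.05. Nr1d1 had 78.3, 78.1, 111, 79.7 and 87.2 CPM in LPS+recAAT and 271, 351, 265, 202 and 211 CPM in LPS+oxAAT (log2 fold change -1.58 ± 0.16, adjusted p = 1.48e-05 in edgeR). Every LPS+recAAT library lay below every LPS+oxAAT library of either set. Within the second set alone, 5 against 3 libraries, the difference was -1.38 ± 0.12 (adjusted p = 0.000805 in edgeR). Igfbp3, a carrier of insulin-like growth factors, had 47.4, 40.8, 44.1, 44.1 and 39.7 CPM in LPS+recAAT and 60.8, 99.6, 78.2, 72.6 and 67.3 CPM in LPS+oxAAT (log2 fold change -0.81 ± 0.1, adjusted p = 0.00022 in edgeR). It stood at -0.76 ± 0.085 within the second set (adjusted p = 0.00459 in edgeR). Against LPS, Igfbp3 was at -0.35 ± 0.1 in LPS+recAAT (adjusted p = 0.0299 in edgeR), and this call was lost with the GC curve removed (adjusted p = 0.134). In LPS+oxAAT against LPS it was higher, at 0.46 ± 0.1 (adjusted p = 0.0114 in edgeR). Dbp had 77.8, 54.5, 89.8, 71.2 and 89.1 CPM in LPS+recAAT and 143, 226, 153, 113 and 105 CPM in LPS+oxAAT (log2 fold change -0.95, adjusted p = 0.0366 in edgeR), and did not pass within the second set (adjusted p = 0.378). Exons of another gene on the opposite strand overlap 18% of the exons of Dbp. Gadd45g and Hgh1 were called only within the second set, at 0.82 and 1.12 on the log2 scale, and are named after their values were seen. A p that misses the threshold does not show that the preparations act alike: Tmem252 differed from LPS+oxAAT by -0.052 ± 0.2, Csrnp1 by -0.1 ± 0.21, Areg by -0.79 ± 0.3 and Cxcl5 by 1.1 ± 0.33 (log2 fold change ± SE).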

How the data were processed

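The authors deposited raw counts of reads per Ensembl gene ID for 23 libraries (41388 genes and 5 summary lines, left out of library sizes and tests), with no normalization. The kit was a stranded one for poly(A) RNA, per the labels' protocols. The submitters' processing notes name HTSeq 0.11.1, STAR 2.4.0.1, Trimmomatic 0.36 and 0.38, FastQC 0.11.8 and build GRCm38. Neither the strand setting nor the annotation release is given in the sources used here, so reads of genes that overlap on opposite strands may be mixed. Reads on no annotated feature were 8.47% to 13.1% in LPS+recAAT and 6.95% to 10.4% in LPS.

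Counts of all 23 libraries were fitted in 1 model with a mean per group, and tested two-sided with edgeR 4.0.16 in R 4.3.3 (quasi-likelihood F test) with TMM scaling, filterByExpr and robust dispersions, and p-values were adjusted over 17148 genes with the Benjamini-Hochberg method. The threshold for a call was an adjusted p of 0.05. Errors of log2 fold changes are SE from the F statistic, those of CPM are SD over mice, and p-values rest on the spread between mice. Depth was 14.8 to 47.9 M gene counts, so counting error adds most to genes of a few CPM. Symbols, positions and GC content came from GENCODE mouse release 21 (GRCm38). The library set (mt-Nd6 above or below 2% of mt-Nd5) was a term in an alternative model. DESeq2 1.42.0, limma 3.58.1, sva 3.50.0 and other settings were alternatives. Scripts were tested on simulated data. No pair of libraries agreed within counting noise.

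The groups and the 46 gene lists (24 pathways, 22 cell types) were chosen with earlier results of these data known. The text names the 8 genes of largest log2 fold change in each direction that were called and had a mean log2 CPM of 1 or more, no overlap between the groups and a symbol that is not a predicted gene, 18 panel genes, and up to 4 members of smallest p in the 14 lists with 2 or more calls. A further part of the rule, for genes called with and without the set term, found 0 genes. Members that only complete a list's count are named beside it, and a few genes that the rule or their p would name are not reported here.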

Additional observations from a re-analysis of the deposited data

Results flagged for a closer look

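Single libraries stood far from the other 4 of their group in 3 of 74 sets of values checked, where chance alone gives about 1 in 20. Nr1d1 was at 111 CPM in LPS+recAAT 6103, with the nearest of the others at 87.2 CPM. Il1b was at 103 CPM in LPS+recAAT 6105, against 54.8 CPM in the nearest, and without this library its log2 fold change against LPS was 0.039. mt-Nd6 was at 16.7 CPM in LPS 1105, against 8.11 CPM in the nearest.

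The genes named by the rule for the direct comparisons were picked because they passed there, so the values below are no further support. A difference between 2 effects against LPS is the direct difference already given above. For mt-Nd6, which defines the library set, it is no result about the treatment. Between LPS+recAAT and LPS+nAAT the difference in log2 fold change was 3.33 for mt-Nd6 (adjusted p = 0.00953 in edgeR), 2.83 for Syn3 (0.00425), 2.39 for Cxcl5 (0.00202) and 1.58 for Snhg14 (0.013). It was -1.56 for Nr1d1 (adjusted p = 2.04e-05 in edgeR), -1.13 for Cilp (0.0135), -1.06 for Tex11 (0.01) and -0.97 for Acoxl (0.00425). All LPS+nAAT libraries belong to the first set, and with the set as a term 0 genes passed. The set term itself, second minus first set in log2 units, was 3.22 for mt-Nd6, 3.11 for Syn3, 0.76 for Cxcl5, 0.68 for Snhg14 and -0.46 for Nr1d1, and -0.037 for Cilp, -0.025 for Tex11 and -0.059 for Acoxl. Between LPS+recAAT and LPS+oxAAT the difference was -1.58 for Nr1d1 (adjusted p = 1.48e-05 in edgeR), -0.95 for Dbp (0.0366) and -0.81 for Igfbp3 (0.00022). In that comparison Nr1d1 and Igfbp3 passed within the second library set as well.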

How the results depend on the processing

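With the library set as a term, the 1456 genes called between LPS+recAAT and LPS became 0, and 331 against LPS+nAAT became 0. In fits with the set term and without any 1 of the LPS+oxAAT libraries, an alternative added after the data were seen, 0 genes passed except without 5103, where 1 did. For LPS+recAAT against LPS, an adjusted p under 0.01 left 573 genes and removal of the GC curve 866 (65.6% of them higher, against 76.2%). Leaving out 1 library gave 865 to 2316 genes, with 963 without LPS 1101, 923 without 1102, 865 without 1104 and 2316 without 1105, and 998 to 1302 without any 1 LPS+recAAT library. The other settings gave 1004 to 2038 genes. LPS+recAAT and LPS mice of the same last digit correlated at r of -0.22 to 0.332. Of the LPS+recAAT libraries, only 6103 correlated best with the LPS library of its own digit, 1103. These few correlations showed no general pairing by number and cannot exclude one. With the replicate block the count was 1850, and 1004 with the block and the GC curve removed. Against LPS+nAAT the block gave 420 and against LPS+oxAAT 4. Against LPS+nAAT the count of 331 became 54 at an adjusted p under 0.01, 208 without genes overlapped on the opposite strand, 532 with 1 surrogate variable, 602 with the Wald test of DESeq2, 1523 with limma voom and quality weights and 561 with only the 2 groups, and leaving out 1 library gave 88 (without 6101) to 282; it was 186 without 4101, 173 without 4102, 153 without 4104, 138 without 4105 and 150 without 6104. Against LPS+oxAAT the 3 calls became 1 without overlapped genes, 8 with the Wald test, 12 with voom and 1 with only the 2 groups, and leaving out 1 library gave 2 to 4. The cause of these shifts was not tested.

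Single genes were followed for LPS+recAAT against LPS, 79 in all and fewer in settings that tested fewer genes (57 without overlapped genes). All 59 that were called lost their call with the set term, and 10 of the 79 changed sign with it: Syn3 (-0.25, and -0.28 against LPS+nAAT), Il6 (0.52), Cxcl2 (-0.36), Dbp (0.11), Tob1 (-0.026), Ifit2 (-0.089), Cmpk2 (-0.11), Hif1a (-0.16), Gclm (-0.063) and Camp (-0.64). Saa3 changed sign with voom (0.00022) and without LPS 1102 (0.06). Of the 59, 15 lost their call with the GC curve removed and 11 without LPS 1104. Among those that lost it in several edgeR fits without 1 library were Ifit2, Hif1a, Atf4 and Igfbp3. Their highest adjusted p in such fits was 0.0688, 0.0933, 0.142 and 0.0781. Depth limits Il6 and Camp, which were under 1 CPM.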
